A study of Homo sapiens with 6 samples.

Results

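The 10 genes described here are both stanniocalcins, STC1 and STC2, and 8 genes of the hypoxia response: VEGFA, ANGPTL4, ADM, CA9, P4HA1, BNIP3L, MXI1 and HIF1A. They were taken by symbol from the 62260 gene rows of the deposited files. STC1 was chosen by its measured rise in the knockout in these same libraries, so its values are given as a description and without a test. The other 9 were named for their family or pathway. RNA came from TYK-nu, an established human ovarian cancer cell line, in 2 groups of 3 libraries each: cells with ZNFX1 knocked out (ZNFX1 KO) and wild-type cells (WT). All were untreated and grown in RPMI-1640 with serum under ordinary carbon dioxide incubation, with no low-oxygen group. Nothing in the sources used here says how the knockout was made or whether the line is 1 clone. Loss of ZNFX1 and any other difference between the KO and WT cells cannot be told apart.

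Hypoxia-inducible factor (HIF) is a pair of proteins, an oxygen-labile alpha subunit such as HIF1A and the stable partner ARNT. With oxygen present, prolyl hydroxylases of the EGLN family mark the alpha subunit and the VHL complex directs its destruction. Without oxygen the pair binds a short DNA element and raises genes for new vessels, acid handling, glycolysis, mitochondrial turnover and collagen folding. Control of HIF1A is therefore largely at the protein level, which these RNA data do not measure. STC1 and STC2 are secreted glycoproteins that take their name from a calcium-regulating hormone of bony fish. Both are known as inhibitors of pappalysins, the proteases that free insulin-like growth factors, and both genes can respond to low oxygen in other cells.

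The libraries held 21413002 to 23494771 assigned fragments, of which 9.93% to 10.7% lay in transcript rows not joined to a gene. The labels call the libraries biological replicates and put all in 1 batch. Separate cultures are not stated, and a p-value here covers the spread between libraries, which may be technical. ZNFX1 itself, a helicase-family RNA-binding protein, was at 103, 70.5 and 75.2 CPM in ZNFX1 KO 1, 2 and 3, against 130, 208 and 109 CPM in WT 1, 2 and 3 (CPM, counts scaled to library size with TMM factors). The ZNFX1 log2 fold change was -0.85 (SE 0.27; adjusted p = 0.218 by edgeR), and reads of the gene remained in every KO library, so its mRNA alone does not check the labels. Without WT 3 it passed the threshold, at -1.01 (edgeR adjusted p = 0.0468, against 0.0468 to 0.553 over all alternatives). Of 10 ovarian carcinoma markers, KRT8, KRT18 and WT1 reached 1 TPM in every library, while PAX8, MUC16, KRT7, MSLN, ESR1 and FOLR1 were at or near 0. EPCAM, the remaining one, was at 0 in ZNFX1 KO and 0.513 TPM in WT (group means). Of 5 endothelial markers, 4 reached 1 TPM in every library, with CDH5 at 90.8 TPM in ZNFX1 KO and 79.85 TPM in WT (group means). The summed endothelial level was 133 to 191 TPM in ZNFX1 KO and 110 to 211 TPM in WT. Of 4 mesenchymal markers, 3 reached 1 TPM in every library and CDH2 was at 0. VIM, among those 3, was at 1524 TPM in ZNFX1 KO and 1526 TPM in WT (group means). Leukocyte markers summed to 4.56 TPM or less in ZNFX1 KO and 1.69 TPM or less in WT, nearly all of it LYZ, and fibroblast markers to 0.0760 TPM or less in ZNFX1 KO and 0.141 TPM or less in WT, with PTPRC and LUM at 0. The part of cell identity in the results below was not tested.

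The DNA element that HIF binds has a core of 5 bases, either ACGTG, with A first, or GCGTG, with G first. RefSeq promoter windows (GRCh38.p14, 250 bases before to 50 after each start) were at hand for 7 of the 10 genes, in 10 windows, and 8 windows held at least 1 match on either strand. STC1, VEGFA and BNIP3L had no window at hand, so their promoters were not read. Of all 35116 windows of this length, 48.4% held a match, 21.4% ACGTG and 36.5% GCGTG. The first of these is also part of the E-box CACGTG, held by 7.26% of windows and by none of these. The sites below are shown because they let the promoters of these genes be read side by side. Each is 30 bases, 5′ to 3′ on the gene's strand, with the match shown in capitals (CACGT where ACGTG is on the other strand). Only 1 match is shown per gene, as an example where a gene held more. The STC2 window held 3 matches. Of those not in capitals, the GCGTG on the other strand at -231 lies in lower case within the STC2 stretch. The MXI1 windows held 0, 2 and 2 matches, and the HIF1A windows 1 and 0.
CA9, chr9:35673898-35673927, plus strand: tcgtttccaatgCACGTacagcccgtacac
ANGPTL4, chr19:8363909-8363938, plus strand: ggaaagaagagtCACGTctcccacggttcg
ADM, chr11:10304960-10304989, plus strand: gagcaggagcgcGCGTGgctgaggaaagaa
P4HA1, chr10:73096935-73096964, minus strand: tgtgatcgagctCACGTagcgagggctgca
MXI1, chr10:110210106-110210135, plus strand: gtggccaccagtCACGTaagcagagagccg
STC2, chr5:173328619-173328648, minus strand: acgcacgcaaacGCGTGgccgccgccaggt
HIF1A, chr14:61695297-61695326, plus strand: tggctgagagcgGCGTGggctggggtgggg
Relative to the RefSeq start site, the first base of the match is at -18 in CA9, -234 in ANGPTL4, -101 in ADM, -86 in P4HA1, -113 in MXI1 (the second of its 3 windows), -222 in STC2 and -204 in HIF1A (the first of its windows). A match is a description of the letters, not a shown binding site. Promoters with a match include that of CA9, a gene without a read in any library. Those of ADM and ANGPTL4, whose fitted values had opposite signs and did not pass the threshold, also held a match. Whether a match bears on the level of a gene was not tested.

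STC1, picked for its rise, was several-fold higher in ZNFX1 KO, while its paralogue STC2 overlapped between the groups. The fitted values of the vessel factors VEGFA and ANGPTL4 were below 0 and that of the vasodilator ADM above 0, none of them past the threshold. Of the 9 genes other than STC1, 8 had enough reads to be tested and CA9 did not. Of these 8, 0 passed the threshold, an adjusted p of 0.05 over all 14166 genes tested (edgeR quasi-likelihood test). Among all tested genes 0.727% passed, 103 in number, 0.268% higher and 0.459% lower in ZNFX1 KO. At an unadjusted p under 0.05 there were 4 of the 8, with VEGFA, ANGPTL4 and MXI1 lower and ADM higher, and 15.1% of all genes (9.19% lower, 5.92% higher). DESeq2 called 3 of the 8 (VEGFA, ANGPTL4 and ADM), against 4.09% of all genes. The same 3 passed without a filter on low counts, against 2.11% of the 28559 genes then tested, and none with transcript rows joined to their genes, against 1.27%. The groups did not overlap in CPM for 3 of the 8, against 20.2% of all genes, with VEGFA and ANGPTL4 lower (10.8% of all genes) and ADM higher (9.39%). Of the 8, 6 had negative values, against 51.2% of all genes. The median log2 fold change of the 8 was -0.36 and that of all tested genes -0.01. Since the set was put together around a gene chosen in this contrast, nothing is read from these counts. In bulk RNA, fewer cells expressing a gene and less of its RNA per cell cannot be told apart.

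**Figure D1:**
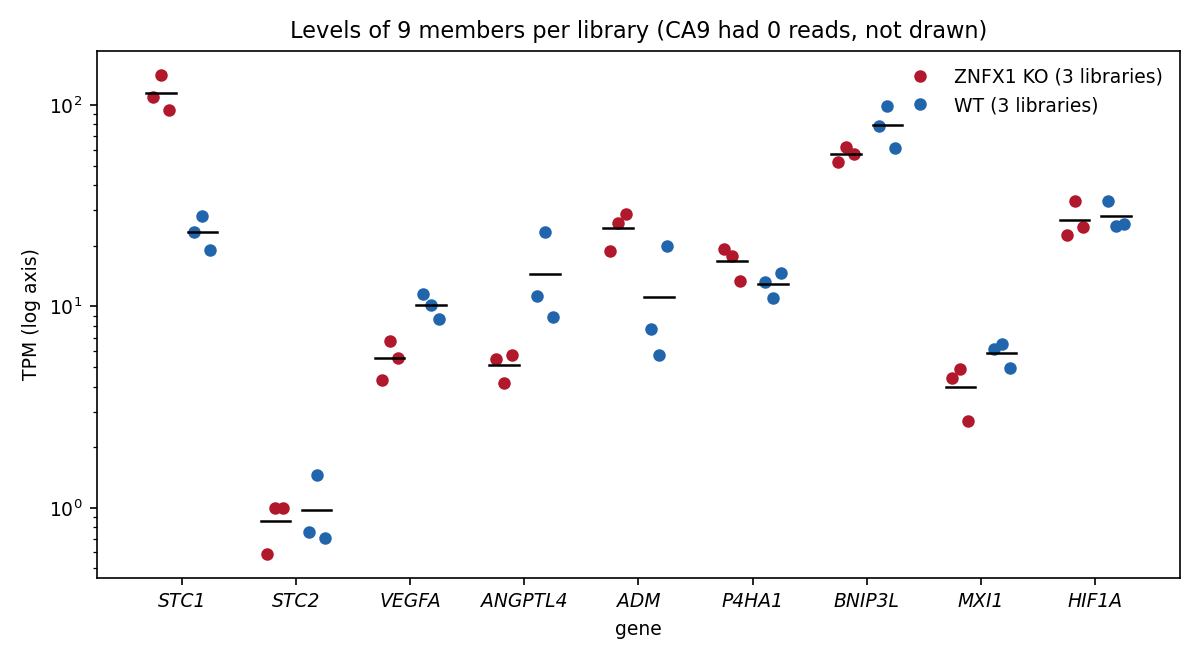
Length-scaled transcript level (TPM, log axis) of 9 genes in each library, ZNFX1 KO in red left of WT in blue, with a bar at each group mean. STC1 lies between 94.5 and 141 TPM in ZNFX1 KO and between 19.0 and 28.1 TPM in WT, while STC2 and HIF1A overlap between the groups.

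STC1 (ENSG00000159167.12, chromosome 8, 23841915 to 23854807, minus strand, GRCh38) was at 680, 715 and 537 CPM in ZNFX1 KO 1, 2 and 3, against 147, 173 and 92.9 CPM in WT 1, 2 and 3. Every KO library lay above every WT library, a separation that repeats the choice of STC1 for its rise in these libraries. Group means were 644 ± 94.5 CPM in ZNFX1 KO and 137.5 ± 40.7 CPM in WT (SD, n = 3 each). The fitted log2 fold change was 2.23, a 4.69-fold (4.685) higher level, and it stayed between 2.03 and 2.43 over 18 other ways of processing. Per length, STC1 averaged 115 ± 23.9 TPM in ZNFX1 KO and 23.5 ± 4.53 TPM in WT. That made it the most abundant of the 10 genes in ZNFX1 KO, with no overlap with the next, BNIP3L, while in WT its range overlapped those of HIF1A, ANGPTL4 and ADM. It has no transcript rows outside its gene row, and no other annotated gene overlaps it.

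STC2 (ENSG00000113739.11, chromosome 5, 173314713 to 173329503, minus strand), the paralogue, which binds PAPPA covalently, was a low-level transcript throughout. It was at 4.08, 5.65 and 6.415 CPM in ZNFX1 KO 1, 2 and 3, against 5.36, 10.1 and 3.875 CPM in WT 1, 2 and 3. The groups overlapped, and the highest and the lowest value were both in WT. Its log2 fold change was -0.26 (SE 0.38; adjusted p = 0.758 by edgeR), and it was positive, at 0.22, without WT 2. Per length, STC1 exceeded STC2 by 186, 141 and 94.5 times in ZNFX1 KO 1, 2 and 3, against 30.8, 19.3 and 26.7 times in WT 1, 2 and 3, a ratio of TPM values. With STC1 picked for its rise, this ratio is a description of the levels and repeats that choice. The protease both inhibit, PAPPA, had between 0 and 12 reads and was not tested.

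VEGFA (ENSG00000112715.26, chromosome 6, 43770184 to 43786487, plus strand), the main growth factor of blood vessels, was at 16.4, 16.9 and 16.6 CPM in ZNFX1 KO 1, 2 and 3, against 43.9, 38.3 and 24.1 CPM in WT 1, 2 and 3. All KO libraries lay below all WT libraries and close to each other, and WT 3 came nearest to them. This was a log2 fold change of -1.09 (SE 0.23; adjusted p = 0.0919 by edgeR), not past the threshold. Over the alternatives adjusted p ran from 0.00309 to 0.384, and VEGFA passed in 3 of 18. Between 21.9% and 36.8% of the VEGFA reads of a library were in transcript rows not joined to the gene row, and every such row with reads is annotated as a retained intron. Those rows summed to 6.76 ± 2.497 CPM in ZNFX1 KO and 15.4 ± 4.95 CPM in WT (SD, n = 3 each). With them added to the gene row, the log2 fold change was -1.11 (edgeR adjusted p = 0.0662). The lower level in ZNFX1 KO was thus found in both sets of rows, which come from the same libraries.

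ANGPTL4 (ENSG00000167772.12, chromosome 19, 8363289 to 8374373, plus strand), a secreted inhibitor of lipoprotein lipase, was at 15.6, 9.78 and 15.3 CPM in ZNFX1 KO 1, 2 and 3, against 32.9, 67.9 and 20.02 CPM in WT 1, 2 and 3. The groups did not overlap, but WT 2 was far above the other WT libraries. The log2 fold change was -1.57 (SE 0.42; adjusted p = 0.158 by edgeR), and without WT 2 it was -0.96 (adjusted p = 0.318), and adjusted p lay between 0.00599 and 0.465 over the alternatives. Of the rest of its family and pathway, 1 of 10 genes was tested, LMF1, which matures lipases, at 1.23 ± 0.0911 TPM in ZNFX1 KO and 2.40 ± 0.186 TPM in WT. LMF1 had a log2 fold change of -0.86 (SE 0.25; adjusted p = 0.193 by edgeR), and the lipase LPL had no reads.

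ADM (ENSG00000148926.10, chromosome 11, 10304680 to 10307397, plus strand) encodes adrenomedullin, a vasodilator peptide. It was at 42.4, 47.8 and 59.9 CPM in ZNFX1 KO 1, 2 and 3, against 17.7, 13.4 and 35.6 CPM in WT 1, 2 and 3. The groups did not overlap, but WT 3 came nearer to ZNFX1 KO 1 than to the other WT libraries. In TPM, WT 3 (19.97) lay above ZNFX1 KO 1 (18.7), so the groups overlapped on that scale. The log2 fold change was 1.17 (SE 0.34; adjusted p = 0.190 by edgeR), with adjusted p from 0.0152 to 0.531 over the alternatives. Its receptor needs CALCRL joined to a RAMP protein. CALCRL was at 7.12 ± 3.38 TPM in ZNFX1 KO and 8.14 ± 1.95 TPM in WT (log2 fold change -0.18, SE 0.34), whereas RAMP2 and RAMP3 had no reads and RAMP1 was too low to test.

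CA9 (ENSG00000107159.14, chromosome 9, 35673856 to 35681159, plus strand), the membrane carbonic anhydrase widely used as a marker of hypoxic tumour cells, had 0 reads in all 6 libraries, in its gene row and in its 2 transcript rows. A count of 0 allows up to 3 reads, or 0.144 to 0.154 CPM in ZNFX1 KO libraries and 0.143 to 0.157 CPM in WT libraries. These floors, unlike the other CPM values, are scaled to library totals without TMM factors. CA9 was therefore not detectable in either group at this depth, and no fold change is given. CA12, the other membrane enzyme often raised with CA9, had at most 2 reads in its gene row. Of 16 carbonic anhydrases and acid or bicarbonate carriers, 7 were tested and 0 passed, against 0.727% of all tested genes. All 7 had negative values (median -0.72), against 51.2% of all tested genes, and nothing is read from this count. Of the 7, 5 stayed negative in every alternative and the other 2, near 0, turned sign in some. SLC4A7, a sodium bicarbonate carrier, was at 35.0 ± 2.17 TPM in ZNFX1 KO and 70.5 ± 25.1 TPM in WT (log2 fold change -0.94, SE 0.32; adjusted p = 0.240 by edgeR).

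P4HA1 (ENSG00000122884.13, chromosome 10, 73007217 to 73096974, minus strand) encodes the catalytic subunit of the prolyl hydroxylase that stabilises collagen. It was at 83.1, 62.9 and 54.4 CPM in ZNFX1 KO 1, 2 and 3, against 58.7, 48.3 and 50.4 CPM in WT 1, 2 and 3. The groups overlapped, with ZNFX1 KO 1 above the rest. Its fitted log2 fold change was 0.35 (SE 0.20; adjusted p = 0.427 by edgeR). Of 13 collagen hydroxylases and partners, 10 were tested and 0 passed, against 0.727% of all tested genes. Of the 10, 8 had positive values (median 0.20), against 6911 of all 14166 tested genes. Nothing is read from this count. P4HA2, the alternative catalytic subunit, was at 0.645 ± 0.155 TPM in ZNFX1 KO and 0.184 ± 0.134 TPM in WT (log2 fold change 1.46, SE 0.55; adjusted p = 0.284 by edgeR). P4HB, the shared partner subunit, was at 0.15 (SE 0.16), PPIB, a prolyl isomerase of the same compartment, at 0.39 (SE 0.16) and the collagen chaperone SERPINH1 at 0.23 (SE 0.25), all log2 fold changes. PLOD2, the lysyl hydroxylase most tied to hypoxia, had at most 7 reads in any library.

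BNIP3L (ENSG00000104765.16, chromosome 8, 26382898 to 26505636, plus strand), also called NIX, is a receptor that marks mitochondria for removal. It was at 183, 202 and 175 CPM in ZNFX1 KO 1, 2 and 3, against 297, 286 and 188 CPM in WT 1, 2 and 3. WT 1 and WT 2 stood above the KO libraries and WT 3 fell among them. On the log2 scale the difference was -0.46 (SE 0.21; adjusted p = 0.346 by edgeR). Its read-weighted transcript length varied 1.36 times between libraries, and PNMA2, which overlaps it on the other strand, had up to 1983 reads. Whether the authors' counting used strand is not given in the sources used here. BNIP3, its close relative and a standard HIF target, had 0 reads in every library. Of 12 genes of BNIP3 and mitophagy 10 were tested and 0 passed, against 0.727% of all tested genes. Of the 10, 8 had negative values (median -0.42), against 51.2% of all tested genes. Nothing is read from this count. The autophagy receptor SQSTM1 was at -0.52 (SE 0.40) and PHB2, a mitochondrial inner membrane receptor, at 0.23 (SE 0.20), as log2 fold changes.

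MXI1 (ENSG00000119950.21, chromosome 10, 110207605 to 110287365, plus strand), a repressor that competes with MYC for its partner MAX, was at 11.65, 10.0 and 8.76 CPM in ZNFX1 KO 1, 2 and 3, against 17.7, 19.4 and 10.9 CPM in WT 1, 2 and 3. WT 3 lay below ZNFX1 KO 1, so the groups overlapped in CPM. In TPM they did not, with 2.69 to 4.87 TPM in ZNFX1 KO and 4.95 to 6.47 TPM in WT. As a log2 fold change this was -0.65 (SE 0.26; adjusted p = 0.292 by edgeR), with adjusted p from 0.0403 to 0.676 over the alternatives. Of 12 genes of the MAX network 10 were tested (median -0.02) and 0 passed, against 0.727% of all tested genes. MYC was at 56.0 ± 7.70 TPM in ZNFX1 KO and 60.2 ± 5.33 TPM in WT (log2 fold change -0.13, SE 0.18). MAX was at 0.34 (SE 0.25) and its relative MLX at 0.24 (SE 0.19).

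HIF1A (ENSG00000100644.17, chromosome 14, 61695513 to 61748259, plus strand), the oxygen-regulated subunit itself, was at 143, 172.5 and 147.5 CPM in ZNFX1 KO 1, 2 and 3, against 216, 160 and 128 CPM in WT 1, 2 and 3. The highest and the lowest library were both WT. The log2 fold change was -0.12 (SE 0.22; adjusted p = 0.806 by edgeR), and it was 0.10 without WT 1. Its partner ARNT averaged 15.4 ± 0.949 TPM in ZNFX1 KO and 15.2 ± 0.195 TPM in WT, a log2 fold change of 0.00 (SE 0.17) whose sign turned with the scaling. Of 20 genes of oxygen sensing 17 were tested (median -0.05) and 0 passed, against 0.727% of all tested genes. EPAS1, the other main alpha subunit, was at 8.62 ± 1.89 TPM in ZNFX1 KO and 6.51 ± 0.109 TPM in WT (log2 fold change 0.35, SE 0.18; adjusted p = 0.393 by edgeR). EGLN1, the main oxygen sensor, was at 6.11 ± 1.36 TPM in ZNFX1 KO and 3.965 ± 0.954 TPM in WT (log2 fold change 0.61, SE 0.23; adjusted p = 0.285 by edgeR). VHL was at -0.20 (SE 0.16) and HIF1AN, the asparaginyl hydroxylase, at -0.07 (SE 0.165). EGLN3, an oxygen sensor that is itself a strong HIF target, had 0 reads in its gene row in every library.

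**Figure D2:**
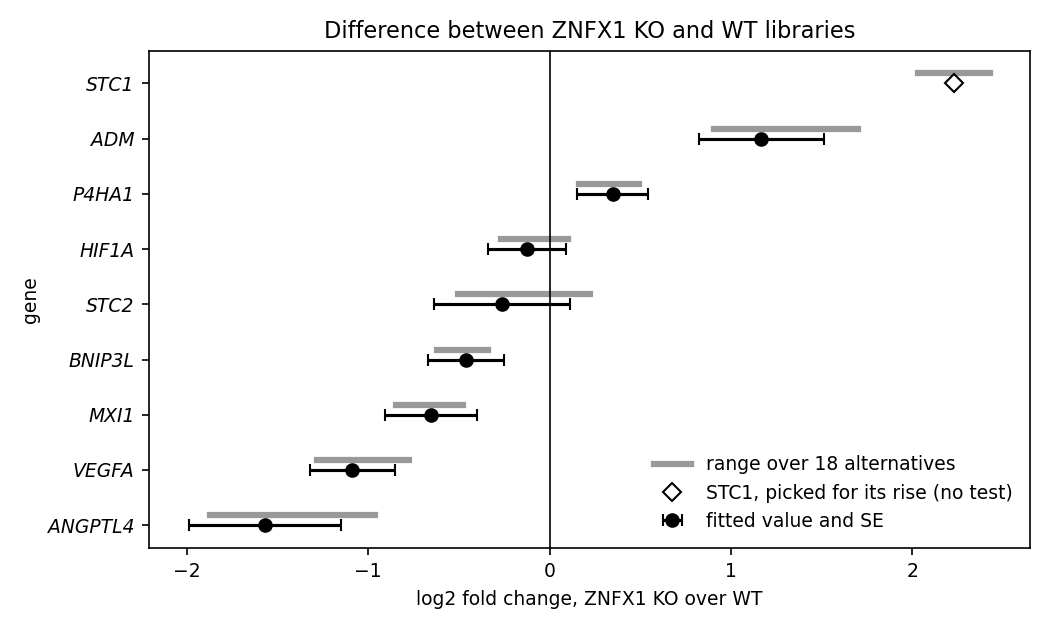
Log2 fold change of ZNFX1 KO over WT for 9 genes, from the fit on all genes, with SE bars and, in grey, the range over 18 alternatives. STC1, at 2.23, is an open diamond with no bar because it was picked for its rise. ADM, at 1.17, and ANGPTL4, at -1.57, lie on opposite sides of 0, and the ranges of STC2 and HIF1A include 0.

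WT 3 was the WT library closest to the KO mean for 5 of the 8 tested genes other than STC1, namely VEGFA, ANGPTL4, ADM, BNIP3L and MXI1, which is 62.5%, near the 53.7% of all tested genes. STC1 was the other way round, with WT 3 the farthest from the KO mean. ADM was lowest in WT 2 and WT 1, the libraries in which MXI1, VEGFA and ANGPTL4 were highest. Among genes outside the set, DDIT4 and LDHA are given because WT 3 stood apart in them, chosen after their values were seen, and WSB1 and HILPDA, for example, had WT 3 close to the other WT libraries. DDIT4, a stress-induced inhibitor of mTOR, was at 58.7, 59.4 and 62.4 CPM in ZNFX1 KO 1, 2 and 3, against 180, 175 and 44.6 CPM in WT 1, 2 and 3. LDHA, which turns pyruvate to lactate, was at 401, 450.5 and 384 CPM in ZNFX1 KO 1, 2 and 3, against 198.5, 126 and 364.5 CPM in WT 1, 2 and 3. In both, WT 3 lay nearer to the KO libraries than to WT 1 and WT 2. Without WT 3, 4 of the 8 genes passed the threshold (VEGFA, ANGPTL4, ADM and MXI1), and 9.02% of all genes then tested did so. The DDIT4 log2 fold change was then -1.54 (edgeR adjusted p = 0.00533) and the LDHA log2 fold change 1.36 (edgeR adjusted p = 0.0229). The carrier SLC4A7 and the lipase maturation factor LMF1 also passed only then (edgeR adjusted p = 0.0157 for the SLC4A7 log2 fold change and 0.0414 for the LMF1 log2 fold change). WT 3 carries the same label as WT 1 and WT 2, and the part of this library in each result was not tested further.

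**Figure D3:**
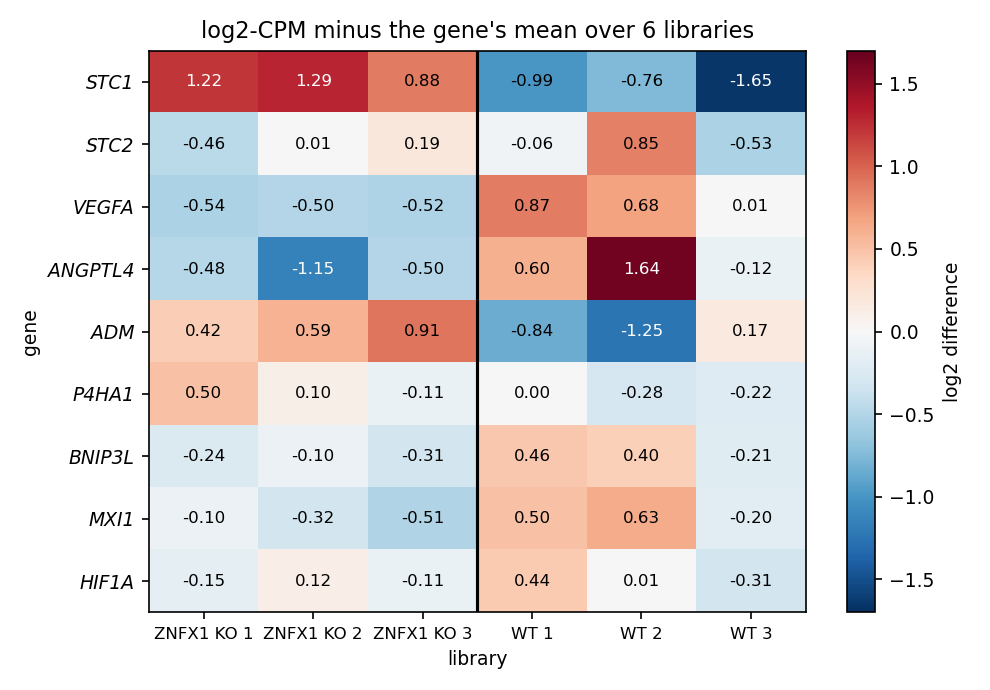
Log2-CPM of each gene minus its own mean over the 6 libraries, ZNFX1 KO columns left of WT columns. In the WT 3 column ADM is at 0.17 and VEGFA at 0.01, whereas WT 1 and WT 2 have ADM at -0.84 and -1.25 (-1.245) and VEGFA at 0.87 and 0.68.

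Around these genes, 163 genes in 10 lists of partners and other targets were examined, of which 113 were tested. They were chosen with earlier results of these data known. Of the 113, 1 rose and 1 fell, and 111 did not pass, against 0.727% called among all tested genes (0.268% higher and 0.459% lower). The median log2 fold change of the 113 was -0.08. Of 35 other HIF targets 26 were tested, 0 rose and 1 fell (median -0.15). Of these 26, 11 had positive and 15 negative values, against 51.2% negative among all tested genes, and the genes named below are not all of them. The gene that fell was WSB1, a ubiquitin ligase adaptor, at 5.67 ± 1.46 TPM in ZNFX1 KO and 15.75 ± 3.40 TPM in WT (log2 fold change -1.22, SE 0.18; adjusted p = 0.0281 by edgeR). The call of WSB1 was lost in 9 of 18 alternatives, among them without WT 1, WT 2, ZNFX1 KO 2 or ZNFX1 KO 3, with adjusted p up to 0.191. DDIT4 was at -1.15 (SE 0.44), the lipid droplet protein HILPDA at 0.12 (SE 0.17) and INSIG2, which restrains cholesterol synthesis, at -0.37 (SE 0.36). HMOX1, the haem-degrading enzyme and among the most abundant of these targets, was at -0.46 (SE 0.36). NDRG1, among the most used hypoxia markers, had 0 reads in every library, as had CXCR4, PPP1R3C and RAB20. Over the 10 lists 22 genes had 0 reads in all gene rows.

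Of 23 HIF targets of glucose uptake and glycolysis 22 were tested, 1 rose and 0 fell (median 0.05). Among all tested genes 0.268% were called higher and 0.459% lower in ZNFX1 KO. ENO2, a glycolytic enolase of neurons, rose to 6.47 ± 1.94 CPM in ZNFX1 KO, against 0.300 ± 0.296 CPM in WT (log2 fold change 4.38, SE 0.73; adjusted p = 0.0411 by edgeR), and its call was lost in 6 of 18 alternatives. Those 6 included leaving out WT 1 or any one KO library (adjusted p up to 0.222). LDHA was at 0.84 (SE 0.34), PDK1, which shuts pyruvate out of mitochondria, at -0.22 (SE 0.23), GAPDH at 0.30 (SE 0.19) and ENO1 at -0.24 (SE 0.20). The glucose carrier SLC2A1 was at -1.28 (SE 1.25) in its gene row, with between 0 and 97 reads there and between 87 and 227 in its transcript rows, so its fold change is uncertain.

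Of 12 stanniocalcin partners and genes of the insulin-like growth factor axis 7 were tested (median -0.12). Of these 7, 0 passed, against 0.727% of all tested genes. IGFBP1, a carrier of these growth factors and also a HIF target, was singled out after its values were seen. It had 99, 194 and 292 reads in ZNFX1 KO 1, 2 and 3, against 7, 0 and 19 reads in WT 1, 2 and 3. Every KO library lay above every WT library, as was so in CPM for 9.39% of all tested genes. Its log2 fold change was 4.56 (SE 0.81; adjusted p = 0.0523 by edgeR), just short of the threshold and past it in 9 of 18 alternatives. IGFBP1 was the 1 gene of this list without overlap and higher in ZNFX1 KO, while 2 were lower (10.8% of all tested genes). The carriers IGFBP2 and IGFBP5 had no reads. HSP90AA1, a chaperone that holds the HIF alpha subunit, was at 0.81 (SE 0.48; adjusted p = 0.439 by edgeR). The HSP90AA1 log2 fold change was 1.64 without WT 3 (adjusted p = 0.0229 by edgeR) and 0.43 without WT 2.

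**Figure D4:**
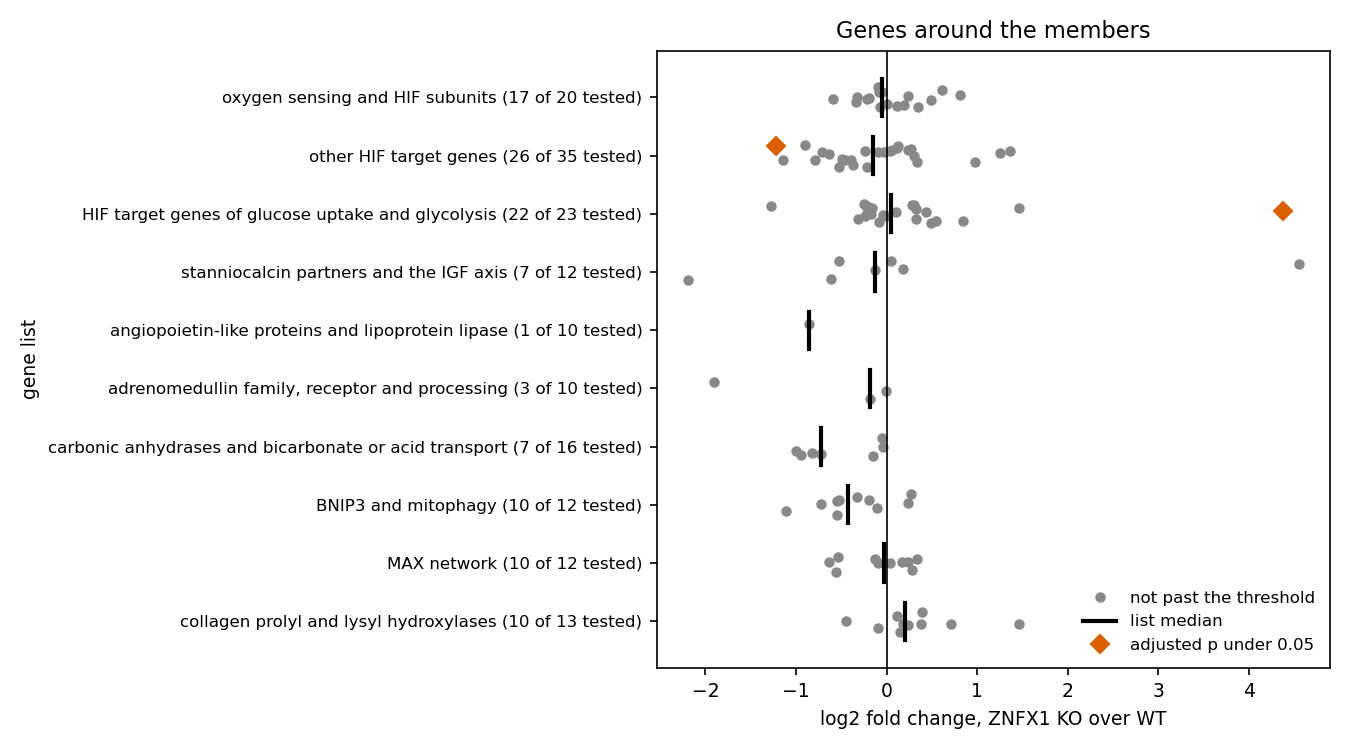
Log2 fold changes of ZNFX1 KO over WT for the 113 tested genes in 10 lists, 1 point per gene, with a black bar at each list's median. Orange diamonds mark the 2 genes with an adjusted p under 0.05, WSB1 at -1.22 and ENO2 at 4.38, and the medians lie between -0.86 and 0.20.

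Log2-CPM was compared with that of 10050 other protein-coding genes whose average was 2 or more. Those whose log2-CPM followed STC1 most closely over the 6 libraries were RPS27A, SYMPK, GNPAT, CDR2 and CNIH3. Pearson's r lay between 0.985 and 0.989 for these 5, as a description over 6 libraries that share the same group difference. Their own differences were smaller than that of STC1, with log2 fold changes of 0.21 for RPS27A, 0.33 for SYMPK, 0.36 for GNPAT, 0.48 for CDR2 and 0.99 for CNIH3, and none passed the threshold (edgeR adjusted p from 0.0687 to 0.549). RPS27A, a ribosomal protein, can share reads with its copies. For STC2 the closest were TTC7A, HMOX1, PYGB, LZTS3 and NBPF12, with r between 0.975 and 0.984 over the 6 libraries, and log2 fold changes from -0.46 for HMOX1 to -0.13 for NBPF12. NBPF12 belongs to a family of near-identical copies, so its counts are uncertain.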

How the data were processed

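RNA of 6 TYK-nu libraries (3 ZNFX1 KO, 3 WT; groups and replicate numbers from the sample titles) was made into libraries with a TruSeq Stranded Total RNA kit, as the labels' protocols state. Per the labels, the authors quantified with Salmon, and each deposited file gives an estimated count of fragments per row. Beside it stand a TPM value and lengths, also deposited. FastQC, Trimmomatic and DESeq2 are also named in the submitters' processing notes. Build, annotation and strand use: not given in the sources used here. Of 197169 rows per file, 62260 are genes (all named by a gene table) and 134909 are transcripts not joined to a gene, which held 9.93% to 10.7% of fragments and stayed out of the main test. Coordinates and gene types are those of GENCODE 29 (GRCh38), matched by gene ID. No column of per-sample values was left unused (0).

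Estimated counts were rounded, filtered with filterByExpr (14166 genes, at least 99.8% of gene fragments), scaled by TMM (factors 0.958 to 1.04) and tested for ZNFX1 KO against WT with edgeR 4.0.16 in R 4.3.3 (glmQLFit and glmQLFTest, two-sided, genotype only, Benjamini-Hochberg over all genes). SE was taken as the absolute log2 fold change over the root of the F statistic. Libraries within a group differed beyond sampling noise (lowest chi-square per degree of freedom 31.1). Floors cover counting error only. The fit was first tested on simulated data with 200 changed genes. There it recovered 33% of true 2-fold and 89% of true 4-fold changes, with 11 false calls among 133. A gene that did not pass may therefore still differ. Alternatives were DESeq2 1.42.0 (size factors; Wald test), library totals, no filter, 1 CPM in 3 libraries, limma 3.58.1 (voom; log2(TPM + 1); log2(TPM + 0.1)), an effective length offset, joined transcript rows, a replicate block, protein-coding genes only and leaving out each library.

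The genes and lists were chosen with earlier results of these data known. Named genes were the 10 genes, ZNFX1, fixed partners, up to 3 called and the 2 most abundant genes per list, and the 5 most like STC1 and STC2. Of these, PAM, SLC16A1, IGFBP6, KDM3A, ELOB, MXD4 and IGF2R, all near 0 and most with a sign that turned with the setting, are not described. Statements on kept directions do not cover them. A further gene named by the rule is not reported here.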

Additional observations from a re-analysis of the deposited data

Results flagged for a closer look

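Transcript rows of HIF1A that the authors left outside its gene row, and that the main test did not use, were higher in every ZNFX1 KO library than in any WT library. They summed to 26.6, 29.7 and 26.3 CPM in ZNFX1 KO 1, 2 and 3, against 20.1, 18.9 and 22.0 CPM in WT 1, 2 and 3. The means were 27.5 ± 1.85 CPM in ZNFX1 KO (27.54) and 20.4 ± 1.58 CPM in WT (SD, n = 3 each). Among all tested genes, 9.39% had groups that did not overlap in CPM and were higher in ZNFX1 KO. No test was run on these rows alone. As a share of all HIF1A reads of a library, the rows held 15.7%, 14.7% and 15.2% in ZNFX1 KO 1, 2 and 3. In WT 1, 2 and 3 the share was 8.55%, 10.6% and 14.7%, so WT 3 was level with ZNFX1 KO 2 on that scale. With these rows added to the gene row, the HIF1A log2 fold change was -0.04 (edgeR adjusted p = 0.93). The row with the most reads, HIF1A-212, annotated as protein-coding, held 279, 411 and 165 reads in ZNFX1 KO 1, 2 and 3, against 81, 0 and 225 reads in WT 1, 2 and 3, and its groups overlapped.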

How the results depend on the processing

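STC1 kept a log2 fold change of 2.03 (without WT 3) to 2.43 (without WT 2) over the 18 alternatives. The number of genes called, 103, was 602 without a filter, 579 with the DESeq2 Wald test, 48 and 66 with limma on log2(TPM + 1) and log2(TPM + 0.1), 187 with joined transcript rows and 14 with the replicate block. It ranged from 2 (without ZNFX1 KO 2) to 1315 (without WT 3) when 1 library was left out, with 24 without WT 1, 57 without WT 2 and 7 without ZNFX1 KO 3. Of the 8 tested genes other than STC1, 0 called became 3 without a filter and 3 with DESeq2, and 0 to 4 when 1 library was left out. Of the list genes, 2 called became 7 without a filter, 8 with DESeq2, 1 with limma-voom, 1 with the effective length offset and 0 with the replicate block. With 1 library left out there were 0 to 22, the most without WT 3. Of all genes then tested, 2.11% were called without a filter, 4.09% with the DESeq2 Wald test and 9.02% without WT 3. The cause of these shifts was not tested. Same-numbered libraries did not deviate together (r = 0.13, -0.04 and 0.01 over genes), and 1 of 3 KO libraries correlated best with its own number, so the replicate number was not treated as a pairing.

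Signs turned for genes near 0 and for some farther from it, such as HMOX1 (-0.46) and TTC7A (-0.32). The ARNT log2 fold change (0.00) was -0.0586 with library totals, -0.0039 with the stricter filter, -0.0174 with the effective length offset and -0.0114 with protein-coding genes only. The SLC2A1 log2 fold change (-1.28) was 0.00 with limma-voom. With 1 library left out, log2 fold changes ranged from -0.0833 to 0.0783 for ARNT, -0.50 to 0.22 for STC2, -0.27 to 0.10 for HIF1A, -0.72 to 0.0826 for HMOX1, -0.52 to 0.12 for CALCRL, -0.63 to 0.32 for TTC7A, -0.44 to 0.12 for PYGB, -0.48 to 0.0333 for LZTS3 and -0.23 to 0.12 for NBPF12. The other 38 of 48 named genes with a test kept their direction in every alternative that gave a value. Depth limits CA9 and the other genes at or near 0 reads, for which no difference could be measured.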
